A study of Sycon ciliatum with 26 samples.

Results

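The 200 genes described here stood highest on the first day after a sponge was taken apart into single cells and fell in the days that followed. They were chosen by their own measured level. CPM values (the usual depth-scaled count, a gene's reads divided by the library total and scaled to a common depth) were averaged over the libraries of each time window, and a gene ID had to reach a day 1 mean of at least 20 CPM and at least 3 times its mean in each of the 6 later windows. Of 35307 gene IDs, 243 met both conditions, and the 200 with the largest ratio of the day 1 mean to the highest later mean plus 1 CPM were kept. The membership rests in part on single libraries: without replicate 2 of day 2 only 126 IDs met the conditions, and 102 of them were among the 200. The height at day 1 against every later window is therefore what selected the members, and it is given below without a test.

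Sycon ciliatum is a calcareous sponge, a small vase-shaped animal whose chambers are lined with choanocytes, the collar cells that drive its water current. When such a sponge is dissociated, its cells gather into aggregates, form an outer layer, hollow out and can rebuild a functional juvenile with spicules and an opening for the outflow. The first day is the time of wounding, re-adhesion and aggregation, and the later windows cover the rebuilding of tissue. The deposited tables list the IDs without gene names, and 0 of them matched an entry among the 26717 genes of a RefSeq annotation of the species, so the function of the members, their place in the genome and their sequence were not analysed here.

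The study followed regenerating structures of Sycon ciliatum, with no treatment or genotype named in the labels, at day 1 (2 libraries), day 2 (2), days 3-4 (6), days 6-8 (6), days 10-14 (4), days 16-18 (3) and days 21-24 (2) after dissociation. The last pair of windows is labelled PJUV and JUV. An adult sample was made of cells dissociated from a whole animal and has 1 library. Replicates are the numbered sample sets of the labels, which do not say whether a set came from 1 animal or several. The p-values therefore measure the spread between these samples, which may be partly technical. The tests treated the libraries of a window as independent, although some were more alike than others, as described under the processing.

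Library totals ran from 7425481 to 26087749 counts, and replicate 1 of day 1 was the deepest. The lowest count of any member at day 1 was 456 in replicate 1 and 89 in replicate 2, so all 200 were well above counting noise there. No batch is named in the labels. A library of days 3-4, replicate 3, stood apart: 133 of the 200 members were above 33.3% of their day 1 mean in it, against 0 to 20 members in the other libraries of that window. The main results that use the days 3-4 mean are given below with and without it.

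The members spanned a wide range at day 1. Their day 1 means ran from 20.6 to 3922 CPM with a median of 62.1 and quartiles of 36.3 and 134.1 CPM. Of the members, 6 passed 1000 CPM, 67 passed 100 CPM and 79 lay under 50 CPM. The 10 highest held 44.3% of the members' summed day 1 level. These levels are not divided by gene length, so they compare a gene between libraries and not one gene with another.

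The day 1 libraries gave the members similar levels. The median difference between replicate 1 and replicate 2 was 0.05 on the log2 CPM scale, with a range of -1.57 to 2.09, and 177 of 200 members lay within 1.5-fold. The replicates were more than 3-fold apart in 1 member, MSTRG.5879, with a 4.27-fold gap, and in 2.80% of all 5928 IDs with a day 1 mean of at least 20 CPM. The mean of a pair enters the rule, so this closeness is a description of the chosen IDs.

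Members clustered at the edge of the rule. The kept member with the smallest fold stood at 3.0005 times its highest later window, and the ID just outside stood at 2.9988 times. The limit of 200 fell between scores of 2.92207 and 2.92205, and the 43 IDs it left out had day 1 means of 20.3 to 75.4 CPM. The lowest day 1 mean of a member was 20.6 CPM, and an ID that met the fold but not the minimum stood at 19.9991 CPM. Only 8 of the 200 would pass if the ratio had to be at least 5.

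The name "pulse" describes these genes poorly, because most were still at nearly the highest level the rule permits on the following day. The median member stood at 29.3% of its day 1 mean at day 2, with quartiles of 27.0% and 30.8%, where the rule allows at most 33.3%. At days 3-4 the median was 19.8% (quartiles 13.0% and 24.4%), or 13.8% (quartiles 9.27% and 17.3%) without replicate 3. At days 6-8 it was 2.74% (quartiles 1.71% and 3.94%), at days 10-14 it was 1.23%, at days 16-18 it was 0.762% and at days 21-24 it was 0.213%. The course was a step down over the first week that continued to the juvenile stages, and they are called day 1-high genes below.

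The members did not all follow this order in every window. Day 2 was the highest later window for 167 members, days 3-4 for 31, days 10-14 for 1 (MSTRG.35294) and days 21-24 for 1 (MSTRG.5376). Without replicate 3 of days 3-4, the mean at days 3-4 was above that of day 2 in 1 member rather than 31. From day 1 to days 6-8 the window means were lower at each step in 162 members, or 189 without replicate 3. Over all 6 steps they were lower each time in 105 members, or 119 without replicate 3, and 151 members were lowest at days 21-24. At or below 10% of the day 1 mean lay 4 members at day 2, 39 at days 3-4 (55 without replicate 3) and 194 at days 6-8. By days 21-24, 158 members were at or below 1%, and 29 had no count in either library, where 3 counts correspond to 0.250 CPM in replicate 1 and 0.195 CPM in replicate 2.

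The members together took up 3.42% and 3.09% of all counts in the day 1 libraries. Their summed level was 34152 and 30929 CPM at day 1 and 11036 and 8325 CPM at day 2. At days 3-4 it was 2699, 7302, 15653, 5776, 2327 and 6664 CPM in replicates 1 to 6. Replicate 3 lay above both day 2 libraries and the other five lay below both. At days 6-8 the sums were 1460, 2550, 1214, 1980, 1177 and 1022 CPM. At days 10-14 they were 855.4, 850.0, 1374 and 967.6 CPM in replicates 2 to 5, at days 16-18 they were 978.5, 897.4 and 1127 CPM, and at days 21-24 they were 675.6 and 721.2 CPM. Every library of the last 3 windows except replicate 4 of days 10-14 and replicate 3 of days 16-18 lay below every library of days 6-8.

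**Figure D1:**
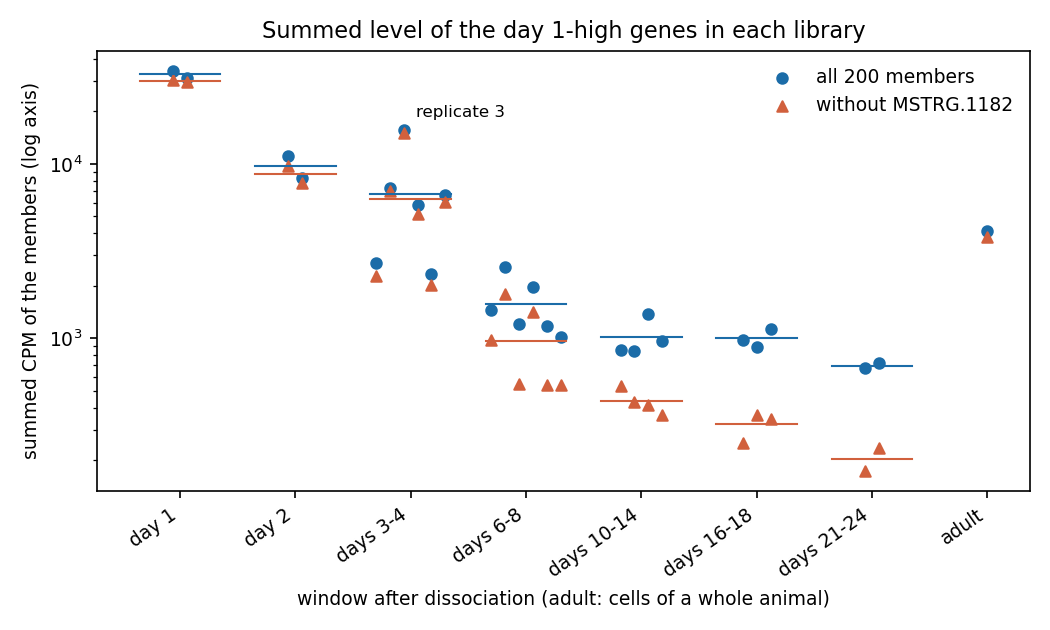
Summed CPM of the 200 members in each library on a log axis, by window after dissociation, with all members (circles) and without MSTRG.1182 (triangles); horizontal lines are window means. The 2 day 1 libraries lie at 34152 and 30929 CPM, replicate 3 of days 3-4 at 15653 CPM and the libraries of days 21-24 at 675.6 and 721.2 CPM.

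One ID, MSTRG.1182, flattened the late part of that curve. It made up 8.65% of the members' summed level at day 1 and 70.7% of it at days 21-24. In a sum without it, chosen after seeing the data, the mean was 29727 ± 640 CPM (SD, n = 2) at day 1, 8749 ± 1443 (n = 2) at day 2 and 6270 ± 4771 (n = 6) at days 3-4, or 4503 ± 2243 (n = 5) without replicate 3. It was 970.7 ± 533.7 (n = 6) at days 6-8, 435.2 ± 70.0 (n = 4) at days 10-14, 321.2 ± 60.2 (n = 3) at days 16-18 and 204.4 ± 43.5 (n = 2) at days 21-24. With it, the last 3 means were 1012 ± 247.6, 1001 ± 116.2 and 698.4 ± 32.2 CPM.

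**Figure D2:**
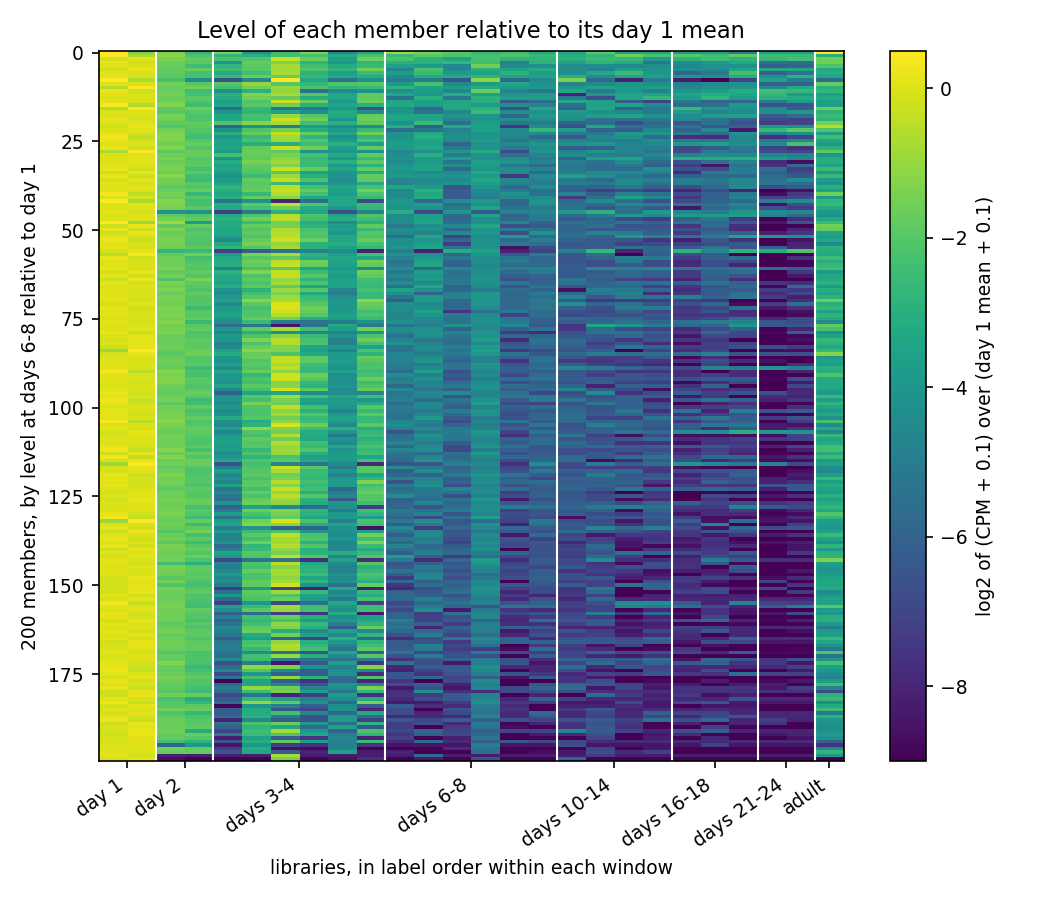
Level of each of the 200 members in each of the 26 libraries as log2 of (CPM + 0.1) over (day 1 mean + 0.1); rows are members ordered by their level at days 6-8 and columns are libraries, with white lines between windows. Replicate 3 of days 3-4 is lighter than its neighbours in most rows, the columns of days 21-24 are darkest, and the adult column is lighter than the late windows.

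The rule did not compare the windows that followed day 1 with each other. Their means did enter it, each held to at most 33.3% of day 1. The shares of members here and in the comparisons that follow depend in part on that choice. The question was whether the members differed among these windows. It was tested with edgeR's quasi-likelihood test on the counts of the 23 libraries of days 2 to 24, fitted over 23777 IDs, with Benjamini-Hochberg adjustment over all of them and a threshold of 0.05. The filter on low counts was computed without the day 1 libraries and kept 199 members. The member left out was MSTRG.18528. Over the 6 later windows 190 of the 199 (95.5%) varied at that threshold, beside 28.2% of all tested IDs. Without replicate 3 of days 3-4 there were 188. The 9 that did not pass were MSTRG.1182, MSTRG.5879, MSTRG.5376, MSTRG.35294, MSTRG.18471, MSTRG.5112 and 3 others.

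Most members were fitted lower at days 3-4 than at day 2, and few of these differences passed the test. In that comparison 16 of 199 members (8.04%) were lower at days 3-4 and 0 were higher, beside 1.45% lower and 1.64% higher among all tested IDs. At an unadjusted p under 0.05, edgeR put 39 lower and 0 higher, and DESeq2 called 24 lower and 0 higher after adjustment. In this and the following comparisons, shares over all tested IDs are given only for the adjusted edgeR calls. The median fitted log2 fold change was -0.60, against 0.06 over all tested IDs, and the fitted value was below 0 for 174 members and above 0 for 25. Without replicate 3 of days 3-4 the median was -1.16, the fitted value was below 0 for all 199 and 14 members were called lower. The count rests on single libraries: it was 0 without replicate 1 of day 2, 9 without replicate 2 of day 2, 7 without replicate 1 of days 3-4 and 6 without replicate 6 of days 3-4. It was also 0 in a fit of these windows alone, where 38 members were lower at an unadjusted p under 0.05.

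Most members were lower again at days 6-8 than at days 3-4. Of 199 members, 152 (76.4%) were lower at days 6-8 and 0 were higher, beside 5.55% lower and 2.46% higher among all tested IDs. Both edgeR and DESeq2 put 0 members higher at an unadjusted p under 0.05, and DESeq2 called 161 lower after adjustment. The median fitted log2 fold change was -2.82, against 0.00 over all tested IDs. As a ratio of window means, with 3 members without enough counts set at 3 counts per library, the median member was 6.35-fold lower. Without replicate 3 of days 3-4, 136 members were called lower and the median log2 fold change was -2.32.

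The decline went on after days 6-8. In the mean of days 16-18 and days 21-24 against days 6-8, 88 of 199 members (44.2%) were lower and 0 higher, beside 4.50% lower and 2.80% higher among all tested IDs. At an unadjusted p under 0.05, edgeR put 145 lower and 1 higher, and DESeq2 called 124 lower and 0 higher after adjustment. The median fitted log2 fold change was -2.58, against -0.06 over all tested IDs. The median member was 3.65-fold lower as a ratio of means, with 36 members set at the level of 3 counts per library. In 41 of the 200 members every late library lay below every library of days 6-8, and the opposite order was seen in 0 members. No share over all IDs is given for this order, so the count describes the members and cannot be set against other IDs. The count of calls rests on the days 21-24 libraries, since leaving out replicate 1 of that window brought it to 11 and leaving out replicate 2 brought it to 18.

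Over the whole span from day 2, 191 of 199 members (96.0%) were lower in the mean of days 16-18 and days 21-24 and 0 were higher. Among all tested IDs, 16.6% were lower and 13.0% were higher. Both edgeR and DESeq2 put 0 members higher at an unadjusted p under 0.05, and the fitted value was below 0 for all 199 tested members. The median member was 40.7-fold lower as a ratio of means, with 36 members set at 3 counts per library. CPM is a share of a library's counts, and in libraries made from whole structures fewer cells of a type and less of the RNA per cell cannot be told apart.

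**Figure D3:**
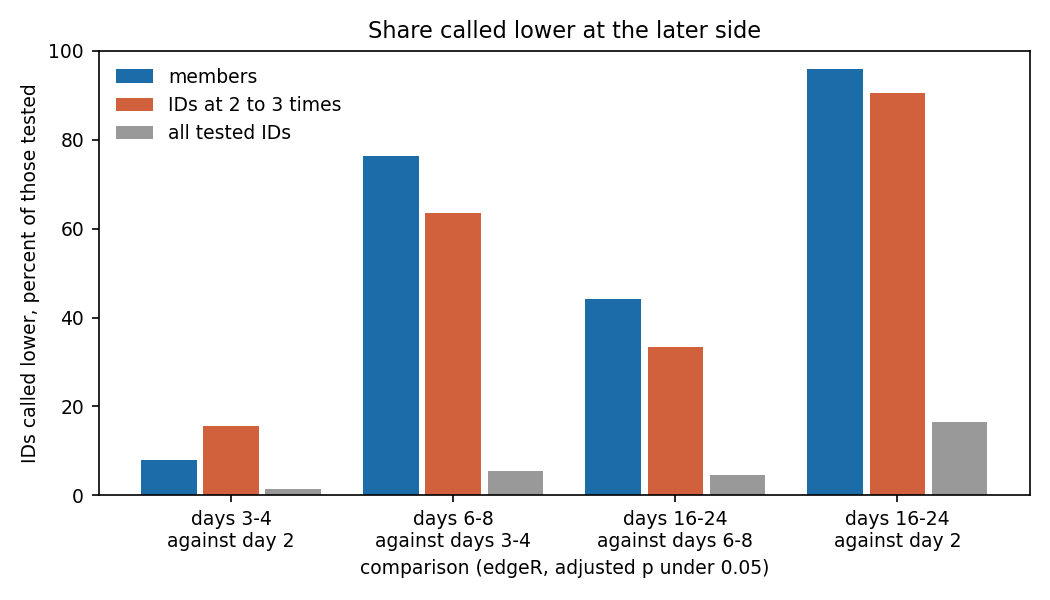
Percent of tested IDs called lower at the later side of each comparison (edgeR, adjusted p under 0.05) for the members, for 347 IDs whose day 1 mean was 2 to 3 times their highest later window, and for all tested IDs. The members reach 8.04%, 76.4%, 44.2% and 96.0% in the 4 comparisons, and all tested IDs 1.45%, 5.55%, 4.50% and 16.6%.

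IDs just outside the fold limit were also lower in the later windows. The 347 IDs with at least 20 CPM at day 1 whose day 1 mean was 2 to 3 times their highest later window were taken for comparison. Of them 15.6% were called lower at days 3-4 against day 2, 63.4% at days 6-8 against days 3-4, 33.4% at days 16-24 against days 6-8 and 90.5% at days 16-24 against day 2 (edgeR, adjusted p under 0.05). Their median log2 fold changes in these comparisons were -0.57, -2.04, -1.89 and -5.10, and those of the members were -0.60, -2.82, -2.58 and -6.33. Without replicate 3 of days 3-4, 14.4% and 48.4% of these IDs were called lower in the comparisons of days 3-4 with day 2 and of days 6-8 with days 3-4, with medians of -0.98 and -1.61. The remaining 5338 IDs with at least 20 CPM at day 1 were lower in 2.59%, 8.37%, 6.03% and 28.6%, respectively. In the test over the 6 later windows 90.5% of the 347 IDs and 36.9% of the 5338 varied, beside 95.5% of the members. The decline was thus also seen in IDs that the rule did not take, and the difference between them and the members was not tested.

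The libraries of days 3-4 differed widely, and they did so across most members at once. The median member stood at 5.59%, 22.5%, 44.0%, 13.7%, 6.19% and 17.3% of its day 1 mean in replicates 1 to 6. At day 2 the corresponding values were 33.2% and 24.7%. Replicates 1 and 5 of days 3-4 were thus nearer to days 6-8, where the medians were 1.06% to 4.62%, than replicate 3 was. The IDs at 2 to 3 times stood at 11.0%, 28.3%, 53.9%, 19.8%, 8.68% and 24.9%, with replicate 3 again highest and replicates 1 and 5 lowest. Over the remaining IDs with at least 20 CPM at day 1 the median was between 89.9% and 103.9% in every library of days 2 to 24.

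**Figure D4:**
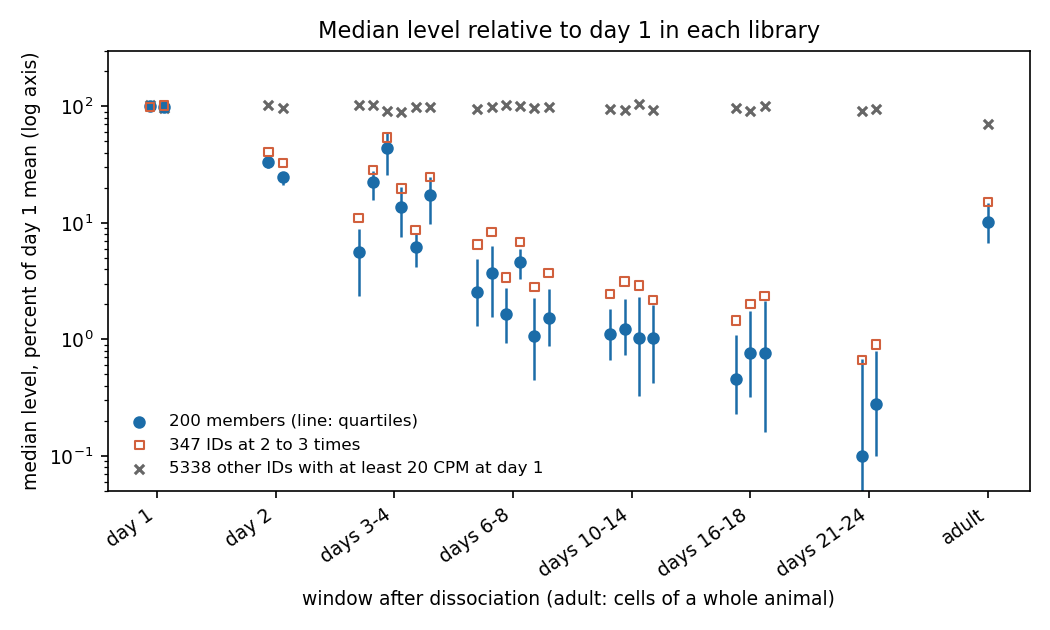
Median level in each library as percent of the day 1 mean, on a log axis, for the 200 members (circles, lines from lower to upper quartile), the 347 IDs at 2 to 3 times (squares) and the 5338 other IDs with at least 20 CPM at day 1 (crosses). The members fall from 33.2% and 24.7% at day 2 to 0.0999% and 0.278% at days 21-24, where the lower quartile of replicate 1 is 0 and runs off the axis; replicate 3 of days 3-4 lies at 44.0% and the adult library at 10.2%.

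Replicate 3 of days 3-4 was the highest library of its window in 149 of 200 members (74.5%), beside 21.9% of all 5928 IDs with at least 20 CPM at day 1. It lay above both day 2 libraries in 132 members (66.0%), beside 33.4% of those IDs, and above the lower day 1 library in 6 members. Its total of 7551436 counts was the smallest of its window, and its TMM scaling factor was 0.857, the smallest of the 23 libraries tested. The label window joins days 3 and 4 and does not say which day a library was taken, so the day within the window and the library cannot be told apart. At the lower end, replicate 5 was the lowest library for 94 members and replicate 1 for 77. The day 2 libraries also differed, with replicate 1 above replicate 2 in 178 members. Their medians were 40.7% and 32.5% of day 1 in the IDs at 2 to 3 times, and 102.1% and 96.5% in the remaining IDs. No share over all IDs is given for the counts of 6, 94, 77 and 178 members, so whether they are particular to the members is not shown.

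The adult library held the members at a middle level. Their median was 7.02 CPM in it, between the 11.6 CPM of days 3-4 (7.98 CPM without replicate 3) and the 1.95 CPM of days 6-8, and it corresponded to 10.2% of day 1. The IDs at 2 to 3 times had a median of 15.2% of day 1 in the adult library. The adult sample is a single library, so no test was made. The adult value was above every library of days 16-24 in 184 members (92.0%), beside 30.0% of the 5928 IDs. It was above every library of days 6-8 in 155 members (77.5%), beside 21.4% of those IDs. The rule held the members' means in these windows low against day 1 and did not use the adult library. The excess over the 5928 IDs thus follows in part from the choice of members, so these shares cannot show it to be particular to them. No such share is given for the IDs at 2 to 3 times. The adult level was also set against the day 2 mean, with 1 CPM added to both sides. At least 3 times lower in the adult library were 78 members (39.0%), beside 15.1% of the 5928 IDs. At least 3 times higher was 1 member, beside 2.28% of the 5928 IDs. The adult sample was itself made of dissociated cells, and how long after dissociation its RNA was taken is not given in the sources used here.

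The most abundant member at day 1 was MSTRG.34636, which was lower in each window after days 3-4 than in the one before. Its level was 3921 and 3924 CPM at day 1 and 1240 and 1159 CPM at day 2. At days 3-4 it was 464.0, 1193, 3100, 1170, 353.2 and 1413 CPM, with replicate 3 again highest. At days 6-8 it was 166.0, 516.8, 55.96, 167.8, 116.1 and 82.12 CPM, and only replicate 2 was above the lowest library of days 3-4. It lay between 22.98 and 57.44 CPM at days 10-14 and between 14.08 and 37.16 CPM at days 16-18. At days 21-24 it was at 1.67 and 10.0 CPM, below every earlier library. The adult library held 320.4 CPM (95% Poisson interval 310.1 to 331.0, counting error only), above every library of days 10-24.

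In the edgeR fit MSTRG.34636 varied over the 6 later windows with an adjusted p of 1.40e-05. The difference between days 3-4 and day 2 was within the spread of the libraries, with a log2 fold change of 0.06 and an edgeR adjusted p of 0.977 (-0.47 and 0.770 without replicate 3 of days 3-4). It fell by 2.95 on the log2 scale from days 3-4 to days 6-8 (edgeR adjusted p = 0.00736). Without replicate 3 this value was -2.39 (edgeR adjusted p = 0.0211). It fell by 4.03 from days 6-8 to days 16-24 (edgeR adjusted p = 0.00473). The latter had an edgeR adjusted p of 0.0517 without replicate 1 of days 21-24.

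MSTRG.1182, the member with the next highest level at day 1, had window means between 466.8 and 679.6 CPM from days 3-4 onward. It was at 3973 and 1654 CPM in the day 1 libraries, a 2.40-fold gap, and at 1266 and 596.1 CPM at day 2. Its window means were 466.8 ± 123.7 CPM (SD, n = 6) at days 3-4, 596.3 ± 111.0 (n = 6) at days 6-8, 576.6 ± 281.2 (n = 4) at days 10-14, 679.6 ± 130.6 (n = 3) at days 16-18 and 494.0 ± 11.3 (n = 2) at days 21-24. Both days 21-24 libraries (486.0 and 502.0 CPM) lay below all libraries of days 16-18 (532.2 to 780.7 CPM) and within the ranges of the 3 windows before them, and replicate 2 of day 2 lay within the range of days 3-24. Its variation over the 6 later windows did not pass (edgeR adjusted p = 0.131). The difference of days 16-24 from day 2 was -0.89 on the log2 scale with an edgeR adjusted p of 0.0458, and over 17 alternatives the adjusted p ran from 0.0162 to 0.761, with 8 under 0.05. Without replicate 1 of day 2 the log2 fold change was -0.25 with an edgeR adjusted p of 0.761.

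**Figure D5:**
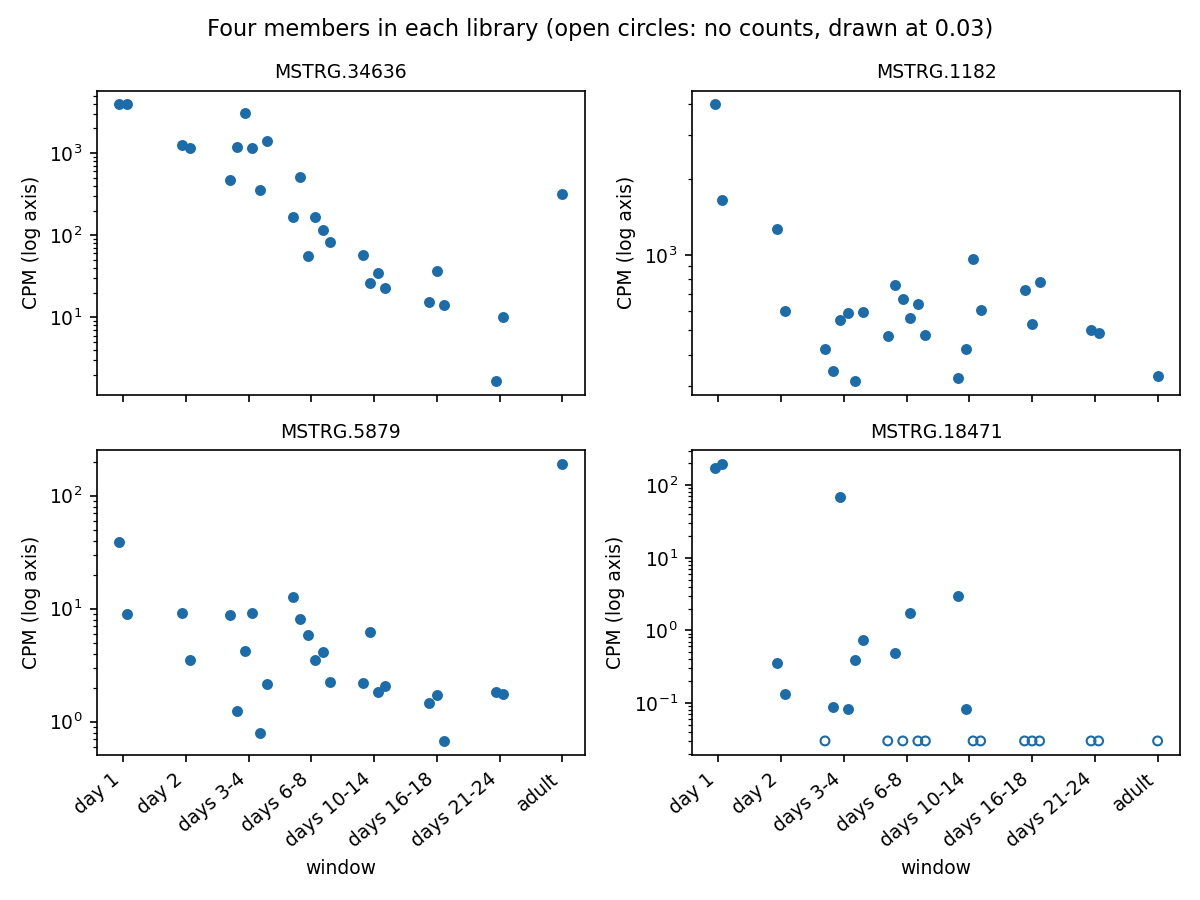
CPM of 4 members in each library on log axes: MSTRG.34636, MSTRG.1182, MSTRG.5879 and MSTRG.18471; open circles are libraries with no counts, drawn at 0.03. MSTRG.34636 falls from 3921 and 3924 CPM to 1.67 and 10.0 CPM, MSTRG.1182 levels off, MSTRG.5879 is highest in the adult library at 190.6 CPM, and MSTRG.18471 is at 67.8 CPM in replicate 3 of days 3-4 and under 3 CPM in all other libraries after day 1.

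The other IDs named here were chosen after their values were seen, because they are the exceptions to counts given above. At days 21-24, 8 members stood above 10% of their day 1 mean. They were MSTRG.1182 and 7 members whose means there were 3.02 to 13.7 CPM. Among them MSTRG.5376 was low in the middle of the series. It was at 24.5 and 28.7 CPM at day 1, 3.99 and 4.58 CPM at day 2 and 0 to 1.10 CPM at days 3-4. Its mean was 1.00 ± 1.27 CPM (SD, n = 6) at days 6-8, 2.70 ± 1.46 (n = 3) at days 16-18 and 4.45 ± 2.06 (n = 2) at days 21-24. The difference of days 16-24 from days 6-8 was 1.80 on the log2 scale and did not pass (edgeR adjusted p = 0.265), and the libraries overlap.

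The 4 members at or below 10% of day 1 at day 2 were MSTRG.18471, MSTRG.18528, MSTRG.5112 and MSTRG.35294. They are the members nearest to a pulse of 1 day, and they did not share a later course. MSTRG.18471 was at 172.5 and 195.7 CPM at day 1 and at 0.355 and 0.135 CPM at day 2. It reached 67.8 CPM (512 counts) in replicate 3 of days 3-4, against 0 to 0.741 CPM in the other five libraries of that window. It was at 0 in the 5 libraries of days 16-24 and in the adult library, where a count of 0 is still compatible with up to 0.263 CPM.

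MSTRG.18528 was also high in the same 3 libraries, at lower levels. It was at 32.5 and 27.2 CPM at day 1, had no counts in either day 2 library, and had 134 counts (17.7 CPM) in replicate 3 of days 3-4 and 0 in the other five. It was also at 0 in all libraries of days 16-24 and at 1.75 CPM in the adult library. Both IDs were thus present in the day 1 libraries and in replicate 3 of days 3-4, and at or near 0 in the day 2 libraries between them. MSTRG.18471 lay just over the threshold in the edgeR test over the 6 later windows (adjusted p = 0.0511). It passed in some of the alternatives, and its edgeR adjusted p was 0.312 without replicate 3 of days 3-4.

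MSTRG.5112 did not follow that library. It was at 36.6 and 35.8 CPM at day 1, 0.532 and 2.29 CPM at day 2, and 0.132 CPM, a single count, in replicate 3 of days 3-4. Its highest value at days 3-4 was 2.13 CPM in replicate 2, and its edgeR adjusted p over the 6 later windows was 0.104. MSTRG.35294 went from 27.6 and 23.2 CPM at day 1 to 1.42 and 1.35 CPM at day 2, and its later window means stayed between 1.03 and 1.75 CPM. Its variation over those windows did not pass (edgeR adjusted p = 0.941), and its adult level was 1.58 CPM.

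MSTRG.5879 was the exception in the adult. It was at 38.6 and 9.05 CPM in the day 1 libraries, so its place among the members rests on replicate 1. Its window means were 6.36 ± 4.04 CPM (SD, n = 2) at day 2, 6.09 ± 3.79 (n = 6) at days 6-8 and 1.79 ± 0.06 (n = 2) at days 21-24. The adult library held 2173 counts, or 190.6 CPM (95% Poisson interval 182.7 to 198.8, counting error only), which is 26.04-fold the day 2 mean with 1 CPM added to both. Its edgeR adjusted p over the 6 later windows was 0.126.

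IDs of gene models assembled from reads are usually numbered along the genome, so neighbouring numbers can belong to parts of 1 gene. Among the 200 there were 6 pairs with consecutive ID numbers, made of 11 members. The correlation of log2(CPM + 1) within such pairs over the 25 regenerating libraries was 0.864 to 0.985, beside a median of 0.911 over all pairs of members. All points share the same libraries and the choice on day 1, so these correlations are descriptions.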

How the data were processed

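RNA of regenerating structures and of adult cells was extracted with Trizol and made into libraries with the Lexogen SENSE mRNA-Seq kit, per the labels' protocols. The authors deposited raw counts, with 26 tables (1 for each library) of 35307 gene IDs, and every row is an ID. The submitters' processing notes name Trimmomatic 0.36, HISAT2, StringTie, featureCounts, DESeq2 and Bowtie2 without their roles or order. Genome build, gene models and strand setting are not given in the sources used here. Overlapping genes and near-identical copies may therefore share reads, which adds an unknown error to single IDs.

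Windows follow the days in the labels (the series' design text ends the fifth window earlier), and replicate numbers are those of the titles, which run from 2 to 5 at days 10-14. CPM were computed on column totals of 7425481 to 26087749 counts. The members, the comparison sets and the alternatives were chosen with earlier results of these data known. Named IDs were to be the 2 members of highest day 1 mean, plus up to 2 that rose after days 6-8 (adjusted p under 0.05, log2 fold change of at least 1, at least 5 CPM in days 16-24), and 0 members met the latter. Tests used edgeR 4.0.16 in R 4.3.3 (filterByExpr, TMM, robust quasi-likelihood F test) on 23 libraries, with 23777 IDs tested, 11530 left out and a common dispersion of 0.177. DESeq2 1.42.0 was an alternative. The fit was tested on simulated data. Over 42 pairs of libraries of the same window, the lowest chi-square per ID was 15.1, so no library was a copy of another in its window. Libraries of different windows were not compared in this way. Libraries of a window were not equally alike. At days 6-8 the value was 23.95 to 32.31 within replicates 1, 3 and 4 and within 2, 5 and 6. Between these groups it was 46.15 to 85.83. At days 16-18 it was 15.1 for replicates 1 and 2, and 60.9 and 63.0 with replicate 3. At days 3-4 it was 22.78 to 41.01 among replicates 1, 2 and 6, and 29.91 for replicates 3 and 4. Between these groups it was 49.83 to 110.3. Replicate 5 of that window stood at 62.47 to 165.6 from the others. At days 10-14 it was 30.36 for replicates 2 and 3, 51.7 for replicates 4 and 5, and 89.56 to 99.09 between these pairs. The main fit treated the libraries of a window as independent, and the cause of this grouping was not tested. Intervals are 95%, and a count of 0 was read as up to 3 counts. Other values used pandas 2.3.3 and SciPy 1.17.1. No value column was left unused.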

Additional observations from a re-analysis of the deposited data

Results flagged for a closer look

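In windows of 4 to 6 libraries, 36 sets of values were checked by Dixon's criterion for a library far from the rest of its window. The sets were the members' sums, medians and counts, and the IDs named above. The criterion has a nominal rate of about 1 in 20 sets, and it was met in 12 sets. That rate does not apply here, so the 12 sets cannot be compared with it. In some of them every other library of the window had no count, so a single count was enough. Most of the named IDs were also chosen after their values were seen. The 12 sets are given as values, and their causes were not tested.

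Replicate 3 of days 3-4 was far from its window in the summed level of the members (15653 CPM, others 2327 to 7302) and in the number of members above 33.3% of their day 1 mean (133, others 0 to 20). The same library was far from the others for MSTRG.18471 (67.8 CPM, others 0 to 0.741) and MSTRG.18528 (17.7 CPM, others 0).

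At days 6-8, MSTRG.34636 reached 516.8 CPM in replicate 2 (others 55.96 to 167.8), and MSTRG.18528 reached 0.480 CPM there (others 0). In replicate 4 of that window MSTRG.18471 was at 1.755 CPM (others 0 to 0.480) and MSTRG.5112 at 1.136 CPM (others 0). At days 10-14, replicate 2 held MSTRG.18471 at 2.943 CPM (others 0 to 0.0833) and MSTRG.5112 at 0.252 CPM (others 0). Replicate 3 of that window held MSTRG.5879 at 6.249 CPM (others 1.831 to 2.186) and MSTRG.18528 at 0.0833 CPM, which is 1 count (others 0).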

How the results depend on the processing

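Over the alternatives run, 168 values of the main counts and sums kept their direction and stayed within 1.5 times (counts) or 1 SD (sums), 31 moved and 0 reversed. For single IDs 264 values kept their call, 10 lost it and 10 gained it, and DESeq2 gave no adjusted p for MSTRG.18471. With a mean of at least 5 CPM required, which left 105 members tested, 103 varied over the later windows, and 3, 97 and 102 changed at days 3-4 against day 2, days 6-8 against days 3-4 and days 16-24 against day 2. Days 3-4 against day 2 gave 2 calls with the title number as a replicate block, 4 with the set label as the block and 0 in a fit of those windows alone, and the cause was not tested. The block moved no other count of calls by over 1.5 times. The numbers did not pair the samples: of 38 pairs with the same title number, 6 correlated above 0.1 (range -0.40 to 0.39), and 3 of 23 libraries correlated best with their own number. For the set labels this was 8 of 41 pairs and 4 of 23 libraries.

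Leaving out 1 library at a time gave 179 to 192 members that varied, and 0 to 20 (days 3-4 against day 2), 136 to 159 (days 6-8 against days 3-4), 11 to 91 (days 16-24 against days 6-8) and 177 to 189 (days 16-24 against day 2) that changed, with 1 member higher at days 16-24 than at days 6-8 without replicate 4 of days 6-8. It gave 126 to 200 members under the rule (126 without replicate 2 of day 2, of which 102 were among the 200; 117 of the 200 without replicate 1 of day 1) and 53 to 92 members at least 3 times lower in the adult. The sums by window, from day 1 to days 21-24, then ranged over 30929 to 34152, 8325 to 11036, 4954 to 7619, 1370 to 1676, 891.0 to 1066, 937.9 to 1052 and 675.6 to 721.2 CPM. A rule of at least 5 times gave 8 members and a day 1 minimum of 50 CPM gave 131. With TMM-scaled totals 330 IDs passed and 191 of the 200 kept their place. The day 1 libraries were over 2-fold apart in 12 members and over 5-fold in 0. Higher in the adult than at day 2 were 2 members with TMM-scaled totals, 3 at 2-fold and 2 with 0.5 CPM added, and lower were 136 at 2-fold and 10 at 5-fold. TMM scaling put the sum at 36579 CPM at day 1 and 5151 CPM in the adult. Leaving MSTRG.1182 out, an alternative chosen after seeing the data, gave sums of 29727 CPM at day 1, 970.7 at days 6-8, 435.2 at days 10-14, 321.2 at days 16-18, 204.4 at days 21-24 and 3800 in the adult. Depth limits the late windows: 36 members had at most 3 counts in each library of days 16-24.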
